A study of Homo sapiens with 2 samples.

Results

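The genes described are 10 components of activin and transforming growth factor beta (TGF-beta) signalling in a pair of human lung cancer cell lines. They were chosen by name, with earlier results of these data known. Every transcript was taken whose gene symbol is INHBA, TGFB1, TGFB2, TGFBR1, TGFBR2, TGFBR3, FST, LTBP1, SKIL or PMEPA1. All 10 symbols were found among the 30843 symbols listed, with 35 of the 65535 listed transcripts. PC9 is an EGFR-mutant lung adenocarcinoma line whose growth is blocked by EGFR tyrosine kinase inhibitors. MTAC-P was derived from PC9 and resists these inhibitors, per the labels, which do not say with which inhibitor it was selected or whether it is 1 clone. Both lines were grown in DMEM with serum, no inhibitor is named for either culture, and each line has 1 library of total RNA.

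Activins and TGF-betas are secreted dimers that signal through pairs of serine/threonine kinase receptors. A type II receptor binds the ligand and phosphorylates a type I receptor, which phosphorylates SMAD2 and SMAD3, and these enter the nucleus with SMAD4 to regulate target genes. Follistatin traps activins outside the cell, and latent TGF-beta binding proteins hold TGF-betas in the matrix until they are released. In epithelial tumours the pathway is known for growth arrest on the one hand and for mesenchymal change and invasion on the other.

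Some members are read as pairs of transcripts of which 1 skips an exon that the other holds. The TGFB2 pair shares its start and end, while the TGFBR1 and TGFBR2 pairs also differ at both ends. These exons are shown first because the listed TGFBR1 transcripts lay in opposite directions. The sequences are from GENCODE release 29 transcripts on GRCh38, plus strand, with the exon in capitals and 20 bases of each flanking exon in lower case. Below each is the junction of the transcript that skips the exon.
TGFBR1 with exon 3: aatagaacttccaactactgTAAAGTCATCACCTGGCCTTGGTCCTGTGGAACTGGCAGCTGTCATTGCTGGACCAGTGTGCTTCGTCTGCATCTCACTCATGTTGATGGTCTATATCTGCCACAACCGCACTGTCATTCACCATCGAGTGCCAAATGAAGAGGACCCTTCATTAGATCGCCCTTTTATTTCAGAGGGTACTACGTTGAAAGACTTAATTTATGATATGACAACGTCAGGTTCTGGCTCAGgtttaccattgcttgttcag
TGFBR1 without exon 3: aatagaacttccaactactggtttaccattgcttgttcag
TGFB2 with exon 2: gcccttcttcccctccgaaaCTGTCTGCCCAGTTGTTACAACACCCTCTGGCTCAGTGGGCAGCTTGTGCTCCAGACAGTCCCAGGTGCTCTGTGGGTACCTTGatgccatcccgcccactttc
TGFB2 without exon 2: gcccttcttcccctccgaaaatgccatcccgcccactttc
TGFBR2 with exon 2: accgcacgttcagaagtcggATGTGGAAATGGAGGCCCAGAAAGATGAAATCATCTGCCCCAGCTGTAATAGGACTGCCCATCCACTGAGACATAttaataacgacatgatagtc
TGFBR2 without exon 2: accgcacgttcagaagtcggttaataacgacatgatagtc

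The TGFBR1 exon lies at chr9:99132509-99132739, is 231 bases long and encodes the membrane-spanning segment and most of the glycine and serine rich region that type II receptors phosphorylate. The TGFB2 exon (chr1:218363334-218363417, 84 bases) encodes an insert in the propeptide. The TGFBR2 exon (chr3:30623199-30623273, 75 bases) encodes an insert near the start of the extracellular part. Each of the 3 exons is wholly coding, and its length is a multiple of 3 (77, 28 and 25 codons).

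Values are FPKM, fragments scaled to transcript length and library size, summed over the listed transcripts of a symbol. The log2 ratio below is log2((MTAC-P + 1)/(PC9 + 1)); it is above 0 where MTAC-P is higher and understates the difference of low genes. A gene was counted at 2-fold where this ratio was 1 or more, or -1 or less. With 1 library a line no value has an error, a p-value or a replicate check, and the number of reads behind a value is unknown. In such bulk samples fewer cells that express a gene and less of its RNA per cell cannot be told apart.

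The listed values summed to 693444 FPKM in PC9 and 685082 FPKM in MTAC-P, with 23.5% and 20.3% from mitochondrially encoded genes. All 7 epithelial markers were compared, with none at 2-fold, beside 7.77% of the 11435 symbols with a mean of at least 1 FPKM. EPCAM, an epithelial adhesion molecule, stood at 161 and 155.7 FPKM. The simple-epithelium keratin genes KRT8 (155.5 and 122.2), KRT18 (2329 and 2720) and KRT19 (549.4 and 429.9) and the E-cadherin gene CDH1 (35.15 and 35.13) were well expressed in both lines. Of the lung adenocarcinoma lineage markers NKX2-1, the lung lineage transcription factor, stood at 0.0787 FPKM in PC9 and at 0 in MTAC-P. NAPSA stood at 1.667 and 1.921 and SFTPB at 1.001 and 1.744. These are sums of listed transcripts, so a low value does not show that a gene is silent. The 8 fibroblast markers together had 2.50 FPKM in PC9 and 2.99 FPKM in MTAC-P, with COL1A1 the 1 marker compared. Of 4 endothelial markers CDH5 was compared (3.343 and 4.132), and VWF and KDR were below 0.1 in both lines. PECAM1 had no symbol in the tables, so it could not be assessed. Of 6 leukocyte markers CD68, a lysosomal protein of macrophages, was compared (22.23 and 28.85), and PTPRC, the pan-leukocyte marker, stood at 0.091 and 0.046.

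MTAC-P had higher levels of the activin subunit gene INHBA, the ligand gene TGFB2 and the target gene PMEPA1, each at least 2-fold, while the receptor genes TGFBR1 and TGFBR3 and the latency gene LTBP1 were lower by less than 2-fold on the scale with the pseudocount of 1. All 10 members reached the minimum mean of 1 FPKM over both libraries. Of the 10, 3 were higher in MTAC-P by 2-fold or more and none was lower by as much. Among the 11435 symbols compared 3.48% were at least 2-fold higher, 4.29% at least 2-fold lower and 7.77% either. Because the members were chosen with earlier results known, their count cannot be weighed against these shares. The members' median log2 ratio was 0.12, beside -0.02 for all symbols compared, with 5 members above 0 and 5 below.

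**Figure D1:**
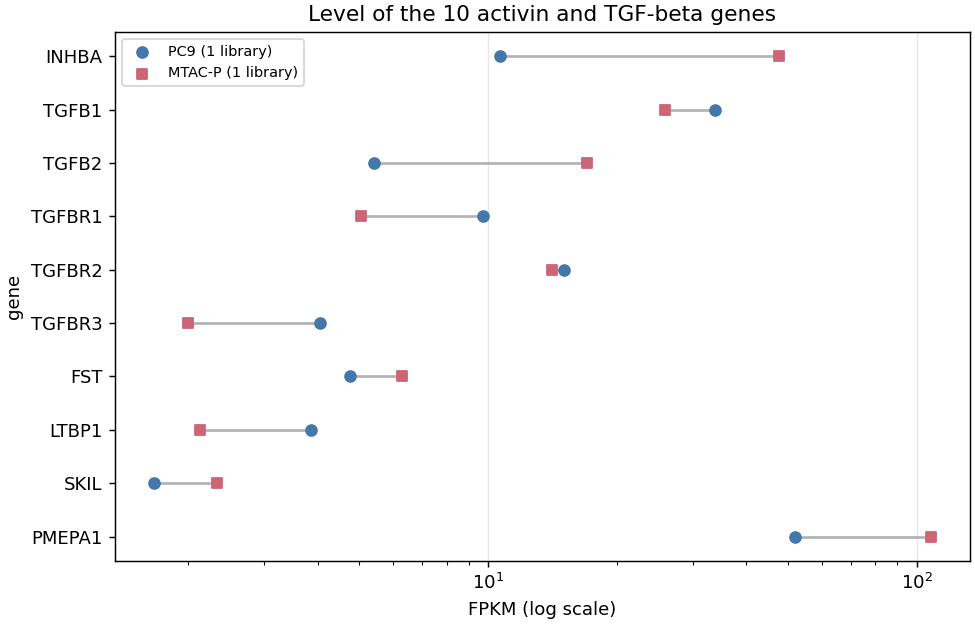
Level of each of the 10 genes in FPKM on a log axis, with a circle for the PC9 library and a square for the MTAC-P library; a grey line joins the values of a gene. INHBA (10.63 and 47.56), TGFB2 (5.404 and 17.04) and PMEPA1 (51.98 and 107.7) have the widest gaps with MTAC-P higher, while TGFBR1, TGFBR3 and LTBP1 are lower in MTAC-P.

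INHBA encodes the beta A subunit, which pairs with itself to form activin A (chromosome 7, 41667168 to 41705834, minus strand, ENSG00000122641.10). It stood at 10.63 FPKM in PC9 and 47.56 FPKM in MTAC-P. The log2 ratio was 2.06, a plain ratio of 4.47, and ranked 81 from the top of the 11435 symbols. The value rests on 1 listed transcript, ENST00000242208, one of 3 coding transcripts in GENCODE; another listed transcript that GENCODE places in INHBA, ENST00000416150, carries another symbol in the tables and was at 0 in both. The antisense gene INHBA-AS1 shares no exon bases with the listed INHBA transcript.

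TGFB2 encodes a TGF-beta ligand that needs the co-receptor betaglycan for efficient receptor binding (chromosome 1, 218346235 to 218444619, plus strand, ENSG00000092969.11). It stood at 5.404 FPKM in PC9 and 17.04 FPKM in MTAC-P, a log2 ratio of 1.49 at rank 191 from the top. Both of its coding transcripts in GENCODE were listed, and both were higher in MTAC-P. The gene TGFB2-OT1 on the same strand shares 1371 exon bases with TGFB2 and had no listed transcript, so reads from it cannot be told apart here. The transcript without exon 2, ENST00000366930, stood at 4.424 and 14.82 (1.54), and the one with it, ENST00000366929, at 0.981 and 2.213 (0.70). The share of TGFB2 with the propeptide insert was thus 18.1% in PC9 and 13.0% in MTAC-P.

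TGFB1 encodes the most widely expressed TGF-beta ligand (chromosome 19, 41301587 to 41353911, minus strand, ENSG00000105329.9). It stood at 33.76 FPKM in PC9 and 25.9 FPKM in MTAC-P, a log2 ratio of -0.37. TGFB1 was therefore the lower of TGFB1 and INHBA in MTAC-P and the higher in PC9: the ratio of INHBA to TGFB1 in FPKM was 0.315 in PC9 and 1.84 in MTAC-P. The ratio of TGFB1 to TGFB2 was 6.25 in PC9 and 1.52 in MTAC-P. GENCODE has 2 coding transcripts for TGFB1 and 3 for INHBA, of which 1 each was listed, so these ratios rest on partial sums.

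Across a list of 14 ligand genes of the pathway, 7 were compared, with a median of -0.19. Of the 7, INHBA and TGFB2 were higher by 2-fold or more and none was lower by as much, beside 3.48% and 4.29% of all symbols compared. Both are members, which were chosen with earlier results of these data known. INHBB, the subunit gene of activin B, was the most abundant in PC9 at 46.25 FPKM and stood at 40.44 in MTAC-P (-0.19). In MTAC-P the highest of the 14 was INHBA, followed by INHBB, TGFB1 and TGFB2. Both rankings are of sums over listed transcripts, which can miss part of a gene. INHA encodes the alpha subunit, which joins a beta subunit to form inhibin, an activin antagonist. INHA stood at 8.018 and 3.619 FPKM, a plain ratio of 0.451 that passes 2-fold, but a log2 ratio of -0.97 with the pseudocount of 1, which does not. INHBA exceeded it 1.33-fold in PC9 and 13.1-fold in MTAC-P. GDF15, a distant family member and stress cytokine, stood at 12.79 and 13.23 (0.05), and TGFB3 was below the minimum at 0.511 and 0.194.

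TGFBR1 encodes the type I receptor for TGF-betas (chromosome 9, 99104038 to 99154192, plus strand, ENSG00000106799.12). It stood at 9.752 FPKM in PC9 and 5.054 FPKM in MTAC-P, a log2 ratio of -0.83. Its listed transcripts lay in opposite directions. The transcript that skips exon 3, ENST00000374990, stood at 7.467 and 1.329, a log2 ratio of -1.86, whereas the transcript with exon 3, ENST00000374994, stood at 2.284 and 3.725, a log2 ratio of 0.52. In the listed TGFBR1 pair, the transcript with the membrane-spanning exon made up 23.4% in PC9 and 73.7% in MTAC-P. The pair also differs at its ends: ENST00000374994 runs from 99105089 to 99154192 and ENST00000374990 from 99105111 to 99153649. The shares therefore cannot be assigned to the exon alone. The symbol as a whole is lower in MTAC-P, but the listed form that includes the exon printed in capitals above is higher.

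This change of 50.3 percentage points was the largest of any member. A threshold of 25 points was chosen after the values were seen. Of 7358 symbols with at least 2 listed transcripts, 19.0% had a listed transcript whose share differed between the libraries by that much, and of the 8 members with several listed transcripts TGFBR1 was the 1 past it. PMEPA1 was next at 24.3 points, then LTBP1 at 16.5, SKIL at 10.6, TGFBR2 at 7.66, TGFB2 at 5.15 and FST at 2.75. The split of reads between transcripts of 1 gene is an estimate whose error is not in the tables. GENCODE has 9 coding transcripts for TGFBR1, of which 2 were listed, so the shares are shares of this pair.

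TGFBR2 encodes the type II receptor, which binds TGF-beta first (chromosome 3, 30606502 to 30694142, plus strand, ENSG00000163513.17). It was the most abundant of the receptor members, at 15.04 FPKM in PC9 and 14.07 FPKM in MTAC-P, a log2 ratio of -0.09. The transcript without the exon 2 insert, ENST00000295754, stood at 10.23 and 8.484 (-0.24), and the one with it, ENST00000359013, at 4.819 and 5.583 (0.18). The insert form was 32.0% of TGFBR2 in PC9 and 39.7% in MTAC-P. The ratio of TGFBR2 to TGFBR1 in FPKM was 1.54 in PC9 and 2.78 in MTAC-P. Of the coding transcripts in GENCODE, 2 of 2 were listed for TGFBR2 and 2 of 9 for TGFBR1. This ratio therefore compares sums of unequal completeness.

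TGFBR3 encodes betaglycan, the co-receptor that presents TGF-beta 2 and also binds inhibin (chromosome 1, 91680343 to 91906335, minus strand, ENSG00000069702.10). It stood at 4.049 FPKM in PC9 and 1.999 FPKM in MTAC-P, a log2 ratio of -0.75 and, without the pseudocount, a PC9 level 2.03 times that of MTAC-P. Nearly all of this came from ENST00000212355; of the other 2 listed transcripts 1 was listed at 0 in both libraries and 1 stood at 1.2e-05 in PC9 and 0 in MTAC-P. GENCODE has 5 coding transcripts for TGFBR3, so the value is a partial sum. The listed TGFBR3 sum was thus lower in the line in which TGFB2 was higher.

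Of 11 receptor genes and receptor regulators of the pathway 9 were compared, none at 2-fold, with a median of -0.13, 3 above 0 and 6 below. With 7.77% of all symbols compared at 2-fold either way, none in so short a list is not read as a difference. The activin receptors lay close together in the lines. ACVR1B, the type I receptor for activin, stood at 7.194 and 5.958 (-0.24), and the type II receptors ACVR2A and ACVR2B at 1.842 and 1.843 (0.00) and at 1.823 and 2.008 (0.09). ENG, the co-receptor endoglin, stood at 8.473 and 7.683 (-0.13). BAMBI, a decoy receptor without a kinase, stood at 8.926 and 4.844 (-0.76). ACVR1C and the co-receptor gene TDGF1 were listed at 0 in both libraries.

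**Figure D2:**
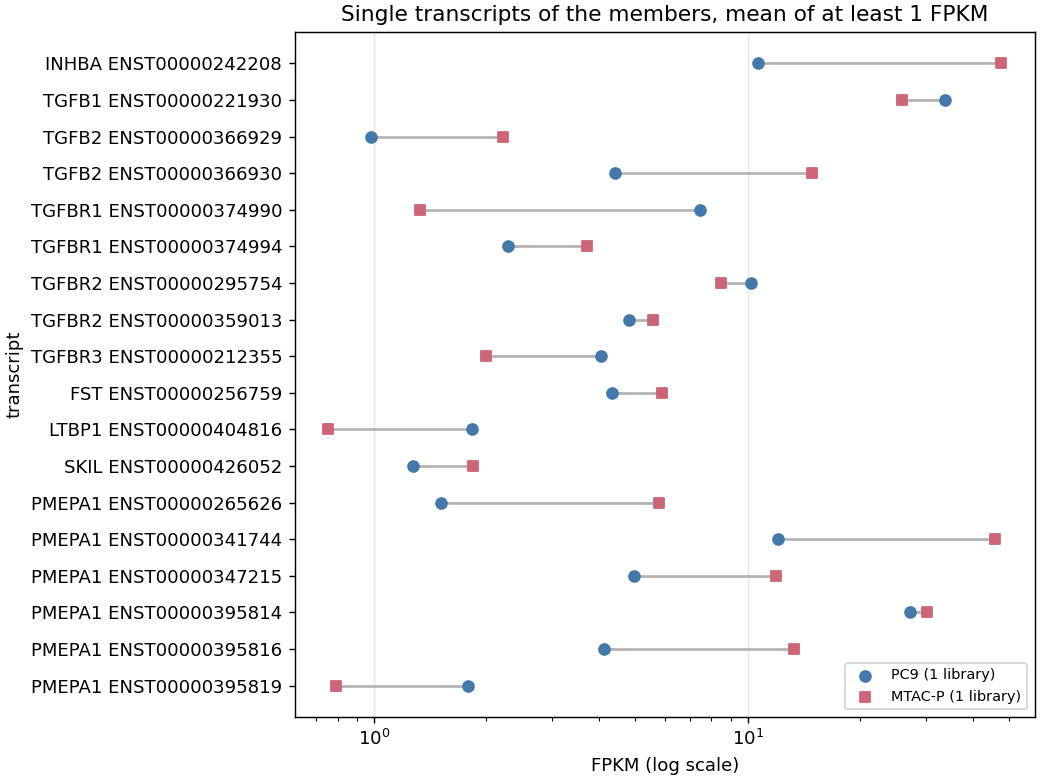
Level in FPKM on a log axis of the 18 listed member transcripts with a mean of at least 1 FPKM, with a circle for PC9 and a square for MTAC-P. The TGFBR1 transcripts lie in opposite directions (7.467 to 1.329 without exon 3 and 2.284 to 3.725 with it), and the PMEPA1 transcripts with the long last exon are all higher in MTAC-P.

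Among the 35 listed member transcripts, 18 had a mean of at least 1 FPKM and 5 were listed at 0 in both libraries. Of the 18, 6 were higher in MTAC-P by 2-fold or more (INHBA, 1 of TGFB2 and 4 of PMEPA1) and 1, of TGFBR1, lower by 2-fold or more. Of the 19406 listed transcripts with that mean 7.76% were at least 2-fold higher, 8.88% lower and 16.6% either. The 18 transcripts are not independent, since those of 1 gene share most of their exons.

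FST encodes follistatin, which binds activin nearly irreversibly (chromosome 5, 53480409 to 53487134, plus strand, ENSG00000134363.11). It stood at 4.757 FPKM in PC9 and 6.283 FPKM in MTAC-P, a log2 ratio of 0.34. GENCODE has 4 coding transcripts for FST, of which 2 were listed. Of this pair the form with the longer coding part, ENST00000256759, made up 91.2% in PC9 and 94.0% in MTAC-P. The 1 listed INHBA transcript exceeded the listed FST pair in both lines, with a ratio of their FPKM of 2.24 in PC9 and 7.57 in MTAC-P. FSTL3, a related activin-binding protein, stood at 11.16 and 17.61 (0.61), higher than the listed FST sum in both lines.

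LTBP1 encodes a latent TGF-beta binding protein that anchors the inactive ligand in the matrix (chromosome 2, 32946972 to 33399509, plus strand, ENSG00000049323.15). It stood at 3.853 FPKM in PC9 and 2.124 FPKM in MTAC-P, a log2 ratio of -0.64. The value is the sum of 12 listed transcripts, some of which were at 0 in both libraries. Of the 12, ENST00000404816, the long form from the upstream start, stood at 1.835 and 0.756 (-0.69). The 4 full-length transcripts from the downstream start summed to 1.514 and 0.961 (-0.36). Both groups were lower in MTAC-P, though ENST00000407925 of the downstream group stood at 0.0322 and 0.369. ENST00000354476, which is not in GENCODE 29, stood at 0.498 and 0.3715 (-0.13). LTBP2 (14.96 and 25.88, 0.75), which binds no TGF-beta, was higher in MTAC-P, and LTBP3 (28.53 and 23.58, -0.26) and LTBP4 (16.19 and 10.97, -0.52) were lower, none at 2-fold.

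In all, 11 of 14 genes for extracellular binding, latency and activation were compared, none at 2-fold in either direction, with a median of 0.26. The share of all symbols compared at 2-fold either way was 7.77%, so this count too is not read as a difference. The most abundant were THBS1, which encodes the latency activator thrombospondin 1 (35.6 and 51.91, 0.53), LTBP3, and FURIN, the protease that cleaves the ligand precursors (24.03 and 28.16, 0.22). The integrin genes ITGAV (15.49 and 19.4, 0.31) and ITGB6 (4.514 and 5.088, 0.14), whose products release latent TGF-beta together, lay within 2-fold.

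SKIL encodes SnoN, a repressor of SMAD complexes that TGF-beta itself induces (chromosome 3, 170357678 to 170396835, plus strand, ENSG00000136603.13). It was the lowest member in PC9, at 1.661 FPKM, and stood at 2.326 in MTAC-P, a log2 ratio of 0.32. Its main listed transcript, ENST00000426052, stood at 1.271 and 1.837. GENCODE has 5 coding transcripts for SKIL and 3 were listed.

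The list of SMADs and their regulators had 16 genes, all compared, with 13 above 0 and a median of 0.23. Of these, 1 was at least 2-fold higher, SMURF2, a ubiquitin ligase that targets SMADs and receptors (4.119 and 9.686, 1.06). Its ratio is close to the 2-fold limit. None was at least 2-fold lower. Among all symbols compared 7.77% were at 2-fold either way, so this count is not read as a difference from other genes. The signal-carrying SMAD genes differed little, with SMAD3 at 17.87 and 21.24 (0.24), SMAD2 at 2.796 and 2.929 (0.05) and SMAD4 at 2.197 and 2.757 (0.23). The inhibitory SMAD7, a target gene as well, stood at 2.409 and 3.872 (0.52). TGIF1, a SMAD corepressor, was the lowest of the list at -0.46 (35.66 and 25.66), and HGS, an endosomal sorting protein, stood at 24.41 and 23.09.

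PMEPA1 is a direct SMAD target whose product restrains the pathway by binding SMAD2 and SMAD3 (chromosome 20, 57648392 to 57711536, minus strand, ENSG00000124225.15). It was the most abundant member in both lines, at 51.98 FPKM in PC9 and 107.7 FPKM in MTAC-P. The log2 ratio of 1.04 is close to the 2-fold limit. It was 0.98 with a pseudocount of 5, and 0.996 when the libraries were scaled to the same sum outside mitochondrial genes.

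All 7 coding transcripts of PMEPA1 in GENCODE were listed, and they divide by their last exon. The 4 transcripts with a last exon of 4205 to 4207 bases summed to 22.66 FPKM in PC9 and 76.78 FPKM in MTAC-P, a log2 ratio of 1.72. These differ in their first exon, and each was at least 2-fold higher in MTAC-P. The most abundant, ENST00000341744, stood at 12.06 and 45.83 (1.84), and the others had ratios of 1.43, 1.11 and 1.48. The 3 transcripts with a last exon of 192 to 562 bases summed to 29.32 and 30.95, a log2 ratio of 0.08. Of these ENST00000395814 stood at 27.2 and 30.16 (0.14), ENST00000395819 at 1.786 and 0.793 (-0.64), and ENST00000414037 at 0.333 and 0. Transcripts with the long last exon made up 43.6% of PMEPA1 in PC9 and 71.3% in MTAC-P. This grouping was made after the values were seen. The longest overlap of an exon of the listed PMEPA1 transcripts with the antisense gene NKILA is 213 bases, and no strand-specific counting is stated.

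**Figure D3:**
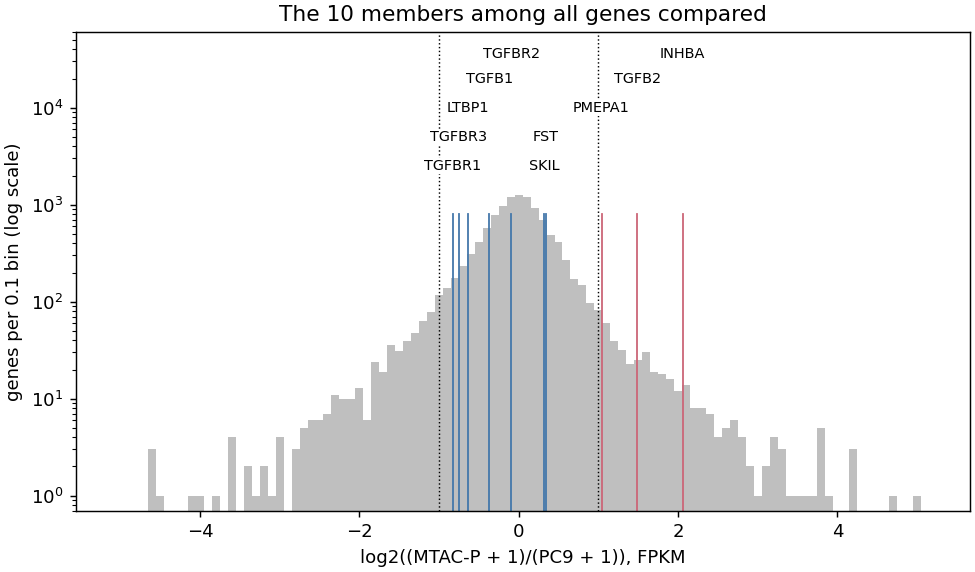
Histogram of the log2 ratio of the 11435 symbols compared, in bins of 0.1 with a log count axis; vertical lines mark the 10 members and dotted lines mark 2-fold. INHBA (2.06), TGFB2 (1.49) and PMEPA1 (1.04) lie beyond the right dotted line and the other 7 members between the lines.

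Of 22 target genes of the pathway, all were compared, 17 lay above 0, 7 were higher by 2-fold or more and none was lower by as much, beside 3.48% and 4.29% of all symbols compared. The list's median log2 ratio was 0.52, beside -0.02 for all symbols. Besides PMEPA1, the 6 were FN1, the matrix protein fibronectin (5.535 and 42.41, 2.73), IL11, an IL-6 type cytokine (3.7 and 24.94, 2.46), CTGF, a matricellular protein (2.394 and 10.48, 1.76), CDKN1A, a cell cycle inhibitor (7.466 and 24.53, 1.59), TAGLN, an actin-binding protein (0.807 and 3.296, 1.25), and SNAI2, a repressor of epithelial genes (0.438 and 2.345, 1.22). TAGLN and SNAI2 were below 1 FPKM in PC9 and reached the minimum mean only through MTAC-P, the line in which they were higher. Many of the 7 are targets of other pathways too. FN1, IL11, CTGF and CDKN1A were known to differ when the list was drawn up, so the list is not independent evidence of its direction.

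The other target genes did not reach 2-fold on the scale with the pseudocount of 1. KLF10, a zinc finger repressor, stood at 14.45 and 20.28 (0.46), JUNB at 41.39 and 35.47 (-0.22) and TPM1, a tropomyosin, at 23.18 and 22.6 (-0.04). In the other direction CDKN2B, the p15 cell cycle inhibitor induced by TGF-beta, stood at 8.675 and 3.846 (-0.997), and TGFBI, an extracellular adhesion protein, at 2.705 and 1.129 (-0.80). Without the pseudocount their ratios were 0.443 and 0.417, and that of SNAI1, a repressor of epithelial genes (1.452 and 3.288, 0.81), was 2.26, all past 2-fold. The cell cycle inhibitors CDKN1A and CDKN2B of this list therefore lay on opposite sides. COL1A1, a target of the list and a fibroblast marker, stood at 1.2 and 1.332 (0.08), and the other 7 fibroblast markers were below a mean of 1 FPKM.

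**Figure D4:**
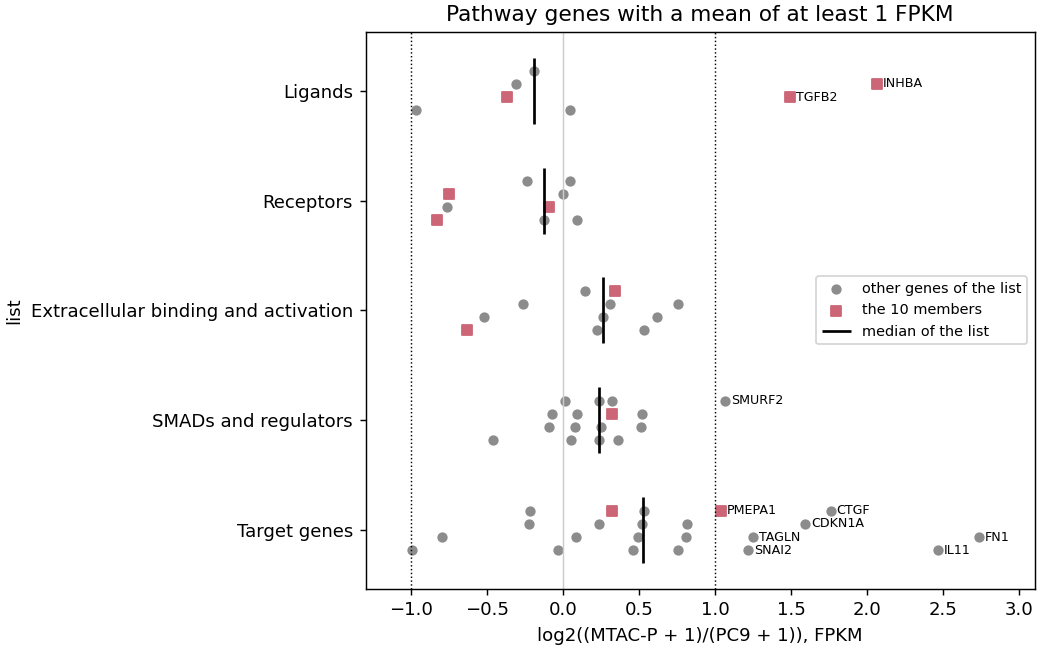
Log2 ratio of each pathway gene with a mean of at least 1 FPKM, by list; squares are the 10 members, grey circles other genes, black bars list medians and dotted lines 2-fold. Genes past the right dotted line are named, and they lie among ligands (2), SMADs and regulators (1) and target genes (7), with none in the receptor and extracellular lists. Of all symbols compared 3.48% were at least 2-fold higher.

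Counting each gene once, the lists held 73 genes, of which 61 were compared. Of the 61, 10 were higher by 2-fold or more and none lower by as much, beside 3.48% and 4.29% of all symbols compared. Without the members 51 were compared, 7 of them higher by 2-fold or more, and the median was 0.14. When the libraries were scaled to the same sum outside mitochondrial genes, 9 of the 61 were at least 2-fold higher and 1 lower. With that scaling 7.76% of all symbols were at 2-fold either way. The lists were drawn up with earlier results of these data known, so these counts are not independent evidence of a direction.

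In order of level, the members in PC9 ran from PMEPA1 through TGFB1, TGFBR2, INHBA, TGFBR1, TGFB2, FST, TGFBR3 and LTBP1 to SKIL. In MTAC-P the order was PMEPA1, INHBA, TGFB1, TGFB2, TGFBR2, FST, TGFBR1, SKIL, LTBP1 and TGFBR3. With 1 library a line, it cannot be said which neighbours in these orders differ beyond the spread between cultures. The members also differ in how many of their coding transcripts were listed, so the orders rank sums of unequal completeness. The coding symbols nearest to INHBA in level in both libraries, by the distance of their log2(FPKM + 1) values among 9850 symbols, were TSTA3 (10.92 and 43.45), LGALS8 (11.99 and 43.26) and MOGS (8.694 and 46.01). This likeness rests on 2 libraries.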

How the data were processed

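RNA-seq of 1 PC9 and 1 MTAC-P library was used. The authors deposited 1 value per transcript, taken as FPKM because the submitters' processing notes name Trim Galore, TopHat and Cufflinks (build hg38, no versions); the tables name no unit and hold no counts or intervals. The design text mentions triplicates, yet a single column of values was given for each line. Each table has 65536 lines with its header, a spreadsheet row limit, and its sorted IDs end at number 437205; later transcripts are not analysed here, so a gene's value is the sum of its listed transcripts. Annotation was GENCODE 29 for GRCh38, matched by transcript ID.

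Values were summed per symbol and compared as log2((MTAC-P + 1)/(PC9 + 1)) for the 11435 symbols with a mean of at least 1 FPKM, with a threshold of 2-fold; no test is possible with 1 library a line. The calling code was tested on simulated data. Python 3.11.15, pandas 2.3.3 and matplotlib 3.10.9 were used. The members and lists were chosen with earlier results of these data known. Named were all members, from each list up to 6 genes at 2-fold and the 3 most abundant others, 3 genes nearest to INHBA and 5 epithelial markers; further list genes, the split of PMEPA1 transcripts and the comparison of shares were chosen after their values were seen.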

Additional observations from a re-analysis of the deposited data

How the results depend on the processing

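Other pseudocounts (0.1 or 5), scalings, minimum means, thresholds, coding transcripts alone or the most abundant transcript were tried, and a scaling to the same sum outside mitochondrial genes was added after seeing the data. Scalings shifted the libraries by at most 0.04 in log2. With a pseudocount of 5, 4 member transcripts and 6 pathway genes reached 2-fold (5.21% of all transcripts and 2.48% of all symbols). At 1.5-fold, 6 members (3 higher, 3 lower), 11 member transcripts and 21 pathway genes passed (20.2% of symbols, 31.3% of transcripts), and at 4-fold 1, 1 and 3 (1.52% and 5.36%); these settings use another threshold. With a pseudocount of 0.1, 14 pathway genes passed (11 higher, 3 lower; 11.8% of symbols) and 10 member transcripts (7 higher, 3 lower; 23.0% of transcripts). Of 80 values of single members, 77 kept their side of 2-fold; PMEPA1 dropped below it in 2, and TGFBR1 reached -1.86 when its most abundant transcript stood for the gene. INHBA ranged from 1.75 to 2.15 and TGFB2 from 1.08 to 1.64. No paired analysis was possible because there was a single library per line. Depth is unknown, so low members such as SKIL, LTBP1 and TGFBR3 cannot be given a precision.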

Other observations

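The coding genes nearest to the members were compared as well, taking 2 on each side with a mean of at least 1 FPKM, at any distance. None of the 12 neighbours of INHBA, TGFB2 and PMEPA1 was at 2-fold. Around INHBA, MPLKIP (1533 kb away) stood at 43.2 FPKM in both lines. PSMA2, a proteasome subunit gene 1211 kb away, stood at 56.63 in PC9 and 42.22 in MTAC-P (log2 ratio -0.42). The nearest gene compared there, C7orf25, lay 1203 kb away, so the immediate surroundings of INHBA were not covered. Around TGFB2, RRP15 (8.25 kb away) stood at 6.589 and 8.365 (0.30), and around PMEPA1, RAE1 (269 kb away) stood at 43.85 and 54.94 (0.32). Of the 40 neighbours of all members, 3 were higher in MTAC-P by 2-fold or more and 1 lower, where 7.77% of all symbols compared were at 2-fold either way, so neither count is read as a difference from other genes. The higher ones were AXL, a receptor tyrosine kinase gene 39.8 kb from TGFB1 (7.888 and 22.68, 1.41), EPHX4, 124 kb from TGFBR3 (2.008 and 5.815, 1.18), and CRIM1, which encodes a membrane protein that binds BMPs, 2956 kb from LTBP1 (3.257 and 10.16, 1.39). The lower one was GALNT12, a glycosyltransferase gene 254 kb from TGFBR1 (17.12 and 7.669, -1.06).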
